A study of Mus musculus with 30 samples.

Results

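The forebrain of E18.5 mouse embryos that lacked Olig genes was compared with that of heterozygous embryos on 4 Affymetrix Mouse Genome 430 2.0 arrays, out of 30 arrays in the study. The arrays were chosen by their titles: 2 held null forebrain and 2 held heterozygous forebrain. The tissue labels give the genotypes as Olig2 -/- and Olig2 +/-, whereas the series design names Olig1/2, and both genotypes are on a mixed Swiss and C57BL/6J background. No wild-type forebrain was analysed here, so the heterozygous embryos, which also carry a mutant allele, are the comparison. Spinal cord of the same stage and genotypes (2 null and 2 heterozygous arrays) shared the fit and is set beside forebrain where the effect may differ. The remaining arrays of the study held neurosphere cultures, labelled E14.5 and named EGFRvIII neurospheres in the series. The labels number the embryos in the same way for both tissues, but do not say whether equal numbers mark 1 embryo, or whether embryos were pooled, and p-values measure the spread between these arrays only.

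The values are MAS5 signals, a linear probe set intensity on an arbitrary scale, and the median signal of the 4 forebrain arrays lay between 199.8 and 211.9. Differences are null minus heterozygous on the scale of log2 of the signal plus 16, which understates changes near background. The 2 null arrays correlated at 0.944, the 2 heterozygous arrays at 0.936 and arrays of unlike genotype at 0.938 to 0.939, so the genotypes did not separate at the level of the whole array. Xist signal was high on all 4 forebrain arrays (22681 to 24806). Forebrain markers were present as labelled. Fezf2, a factor of deep-layer cortical neurons, gave 843 and 1084 in null and 758 and 889 in heterozygous forebrain, against 5.7 to 16.6 in spinal cord. The 13 Hox genes of the trunk with a probe set summed to 1404 to 1797 in forebrain, against 18374 to 21306 in spinal cord. Precision is limited by the number of arrays. The median half-width of the 95% interval of a difference was 0.41, and an exact permutation test of 2 against 2 arrays cannot give a p below 0.333.

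Olig1 and Olig2 are neighbouring basic helix-loop-helix transcription factor genes. Olig2 specifies oligodendrocyte precursors and spinal motor neurons, and it is expressed in progenitors of the ventral forebrain, from which interneurons also arise. Oligodendrocyte precursors are marked by the receptor Pdgfra, the proteoglycan Cspg4 and the factor Sox10, and in the mouse forebrain most myelin is made after birth.

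Across the genome few transcripts passed the test between the genotypes. Of 12342 genes tested with limma, 5 were called at an adjusted p under 0.05 (0.0405%). Of these, Sox11, Mboat2, Soga3 and Hbb-b2 rose in null forebrain (4 genes, 0.0324%) and Hoxb3 fell (1 gene, 0.0081%). At an unadjusted p under 0.05 there were 782 genes (6.34%), with 381 higher and 401 lower. The median difference of all genes was 0.0019. With every probe set as a feature, 4 of 25925 were called (0.0154%). They belong to Sox11, Mboat2, Hoxb3 and Tma16, the last of which is named after its values were seen. Tma16 1431117_x_at gave 404 and 378 in null forebrain, against 1057 and 1217 in heterozygous forebrain (-1.50, adjusted p 0.014), and its suffix marks probes that may cross-hybridise. None of the 303 tested memberships of the 21 gene lists was called in forebrain apart from Sox11, listed among newborn neuron genes, and Hoxb3, listed among hindbrain genes. In spinal cord 16 genes were called (0.13%).

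Olig2 signal was low in forebrain and lower in the null arrays. It gave 179 and 109 in null forebrain, against 269 and 519 in heterozygous forebrain. The groups did not overlap, but the heterozygous arrays differed from each other more than the nearest arrays of unlike genotype did. The difference was -1.33 ± 0.51 (SE) and was not called (limma p 0.025, adjusted p 0.72). Olig1 gave 1686 and 1889 in null forebrain, against 2187 and 1787 in heterozygous forebrain, and the groups overlapped (-0.15 ± 0.12 (SE), adjusted p 0.88). The same probe sets were called lower in null spinal cord, by -3.24 for Olig2 (adjusted p 0.043) and by -1.03 for Olig1 (adjusted p 0.0054). The difference of the Olig1 effect between the tissues was 0.88 ± 0.17 (SE) with an unadjusted p of 0.00025 and an adjusted p of 0.51. No source used here places these probe sets inside or outside the deletion, so neither level is a full check of the labels.

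Of 4 genes whose promoters were sought in the RefSeq table of build GRCm38.p6, 3 had an entry, and Sox10 had none. The windows of Pdgfra and Cspg4 are shown because both are surface markers of precursors with probe sets that did not overlap between the genotypes, and Olig2 is a factor of the class that binds the E-box CANNTG. Each runs from 250 bases before to 50 bases after the start of the gene, 5′ to 3′ on the strand of the gene. Capitals mark CANNTG, which reads the same on both strands. The Pdgfra window is chr5:75152001-75152300 on the plus strand and holds 2 matches. The Cspg4 window is chr9:56864854-56865153 on the plus strand and holds 0. Of 32851 windows of this length in the table, 72.3% hold at least 1 match, so a match is common.
Pdgfra: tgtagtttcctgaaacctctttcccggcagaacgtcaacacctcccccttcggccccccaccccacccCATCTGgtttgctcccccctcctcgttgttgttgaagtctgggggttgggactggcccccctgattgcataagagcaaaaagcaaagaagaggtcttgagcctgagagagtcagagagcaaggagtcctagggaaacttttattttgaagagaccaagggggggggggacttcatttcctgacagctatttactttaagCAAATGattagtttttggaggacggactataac
Cspg4: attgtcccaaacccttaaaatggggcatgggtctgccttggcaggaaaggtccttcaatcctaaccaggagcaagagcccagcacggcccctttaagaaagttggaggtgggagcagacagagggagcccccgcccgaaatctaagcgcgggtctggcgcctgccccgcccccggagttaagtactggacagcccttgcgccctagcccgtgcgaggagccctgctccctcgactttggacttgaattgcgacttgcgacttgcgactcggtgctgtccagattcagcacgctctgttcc

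Among precursor transcripts, probe sets of Pdgfra, Cspg4, Gpr17 and Sox10 lay lower on both null arrays, none of them with a call. Pdgfra, the receptor for the mitogen of precursors, has 3 probe sets. Probe set 1421917_at gave 92.2 and 19.7 in null forebrain, against 483.9 and 484.1 in heterozygous forebrain. Both null signals lay below the array median, and the difference of -3.01 ± 0.45 (SE) was not called over all probe sets (limma p 3.8e-05, adjusted p 0.074). Probe set 1438946_at gave 21.4 and 39.4 in null forebrain, against 131.1 and 146.7 in heterozygous forebrain. Probe set 1421916_at gave 194.5 and 160.5, against 92.4 and 183.1, with overlap. Neither 1438946_at nor 1421916_at passed the filter on low signals, so the gene has no entry in the gene-level fit, where 1421916_at would have stood for it.

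Cspg4 encodes the NG2 proteoglycan. Its probe set 1450944_at gave 272 and 222 in null forebrain, against 436 and 430 in heterozygous forebrain (-0.78 ± 0.19 (SE), limma p 0.002, adjusted p 0.51). Probe set 1423341_at gave 10.4 and 21.1 in null forebrain, against 103.2 and 103.3 in heterozygous forebrain (-1.93, adjusted p 0.62). Both probe sets thus placed both null arrays below both heterozygous ones. Every forebrain signal of 1423341_at lay below the array median, so its difference is read near background. Gpr17, a receptor of precursors about to differentiate, gave 48.4 and 81.4 in null forebrain, against 240.9 and 252.8 in heterozygous forebrain. It differed by -1.73 ± 0.37 (SE), with limma p 0.00077 and adjusted p 0.45. In bulk tissue, fewer precursor cells and less RNA per precursor cell cannot be told apart.

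Sox10, the factor that drives the oligodendrocyte programme with Olig2, was read by 3 probe sets. Its 1424985_a_at gave 351 and 229 in null forebrain, against 514 and 486 in heterozygous forebrain (-0.78 ± 0.22 (SE), limma p 0.0049, adjusted p 0.63). Its 1451689_a_at gave 69.4 and 144 in null forebrain, against 300 and 432 in heterozygous forebrain (-1.69). For 1425369_a_at the groups overlapped (-0.45). None of the 3 probe sets was called.

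The core precursor genes Ptprz1, Dll1 and Nkx2-2 were also without a call. Ptprz1, a receptor phosphatase of radial glia and precursors, gave 4670 and 4977 in null forebrain, against 4665 and 4582 in heterozygous forebrain (0.06 ± 0.10 (SE)). Its 1418690_at gave 3723 and 4226 in null forebrain, against 3347 and 2926 in heterozygous forebrain (0.34, limma p 0.014, adjusted p 0.66), and 1452284_at stood at 0.08. The Notch ligand gene Dll1 differed by -0.09 ± 0.14 (SE), and the ventral progenitor factor Nkx2-2 gave 250 and 319 in null forebrain, against 251 and 248 in heterozygous forebrain (0.17 ± 0.22 (SE)).

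Of the 32 genes of the precursor list, 28 had a probe set and 24 were tested. None was called. At an unadjusted p under 0.05, 0 were higher and 4 lower (16.7%, against 3.25% of all genes). These 4 were Gpr17, Cspg4, Sox10 and Olig2. Of them, Olig2 is the gene that the tissue labels name as mutated. Olig2 and Gpr17 reached the array median on heterozygous arrays alone, so they passed the filter only through the genotype where they are high. The share is therefore partly set by the design and the filter. Both null arrays lay below both heterozygous arrays for 8 of the 24 (33.3%, against 18.1% of all genes) and above them for 2 (8.33%, against 18.3%). The list median was -0.08, and it lay between -0.18 and -0.05 when 1 forebrain array was left out. Among the 42 tested probe sets of the list, 7 were lower (16.7%, against 3.68% of all probe sets) and 1 higher at an unadjusted p under 0.05 (2.38%, against 2.95%). The matrix protein gene Tnr stood at -0.37 ± 0.20 (SE), and Chst11, a chondroitin sulphotransferase gene, at 0.23. The adaptor gene Lims2 gave 322 and 35.5 in null forebrain, against 277 and 181 in heterozygous forebrain (-0.87 ± 0.80 (SE)), and ran between -2.22 and 0.49 over the alternatives. Megf11 (-0.37), S100b (0.30) and the zinc finger factor Myt1 (0.25) also changed sign in 1 alternative each.

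**Figure D1:**
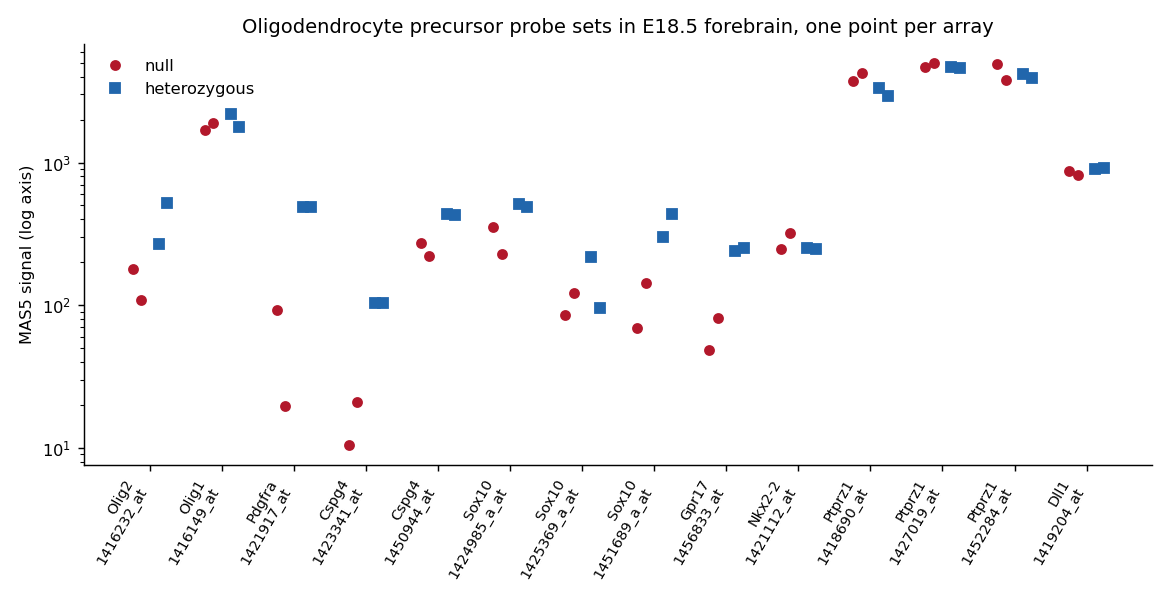
Signal of the 14 tested probe sets of 9 oligodendrocyte precursor genes on each E18.5 forebrain array (log axis), with the 2 null arrays as circles left of the 2 heterozygous arrays as squares. Pdgfra 1421917_at, both Cspg4 probe sets, Sox10 1424985_a_at and Gpr17 lie lower on both null arrays, whereas the arrays of Olig1 and Nkx2-2 overlap between the genotypes.

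Among myelin genes, Mbp, Cnp and Gal3st1 lay lower on both null arrays, without a call. Mbp, which encodes myelin basic protein, was read by 8 probe sets. Probe set 1433532_a_at gave 38.8 and 14.3 in null forebrain, against 155.7 and 205.5 in heterozygous forebrain (-2.26 ± 0.31 (SE), limma p 2.1e-05, adjusted p 0.062). Both null signals and that of heterozygous replicate 3 lay below the array median, so this difference is read near background. Probe set 1419646_a_at, which stood for the gene, gave 193 and 164 in null forebrain, against 370 and 259 in heterozygous forebrain (-0.75 ± 0.26 (SE), adjusted p 0.67). The remaining 6 Mbp probe sets stood between -0.99 and 0.20. Cnp, a membrane enzyme gene of oligodendrocytes, gave 555 and 561 in null forebrain, against 696 and 737 in heterozygous forebrain (-0.35 ± 0.15 (SE)). Gal3st1, which makes the myelin lipid sulfatide, differed by -0.49 ± 0.21 (SE). Of 12 tested myelin genes 0 were called, 3 were lower at an unadjusted p under 0.05 (25%, against 3.25% of all genes), 0 were higher, and the list median was -0.08. The median was 0.02 without heterozygous replicate 3, with 7 of 12 genes positive, and -0.33 without heterozygous replicate 4.

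Spinal cord was set beside forebrain to test whether the genotype difference itself differed between the tissues. Gpr17 fell in the cord, with 22.4 and 15.5 in null cord, against 1838 and 1853 in heterozygous cord (-5.74 ± 0.37 (SE), adjusted p 0.00013). The difference of its effect between the tissues was 4.01 ± 0.53 (SE), with unadjusted p 1.2e-05 and adjusted p 0.15. Mbp differed between the tissues by 2.20 (adjusted p 0.31) and Nkx2-2 by 1.19 (adjusted p 0.71). Cspg4 stood at -0.91 in the cord and its effects differed between the tissues by 0.13 ± 0.27 (SE). Sox10 stood at -0.45 in the cord and its effects differed by -0.34 ± 0.32 (SE). Pdgfra 1421917_at stood at -1.01 in the cord and at -3.01 in forebrain. The difference of its effect between the tissues had a limma unadjusted p of 0.0095 and was not called over all probe sets. Over all genes 0 passed the test of the difference between the tissues and 705 had an unadjusted p under 0.05 (5.71%). On the precursor list 14 of 24 genes were lower in the cord at an unadjusted p under 0.05, against 2.97% of all genes. Of these, 3 were called, namely Olig1, Olig2 and Gpr17. The limits given for Olig2 and Gpr17 in the forebrain count hold here as well.

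**Figure D2:**
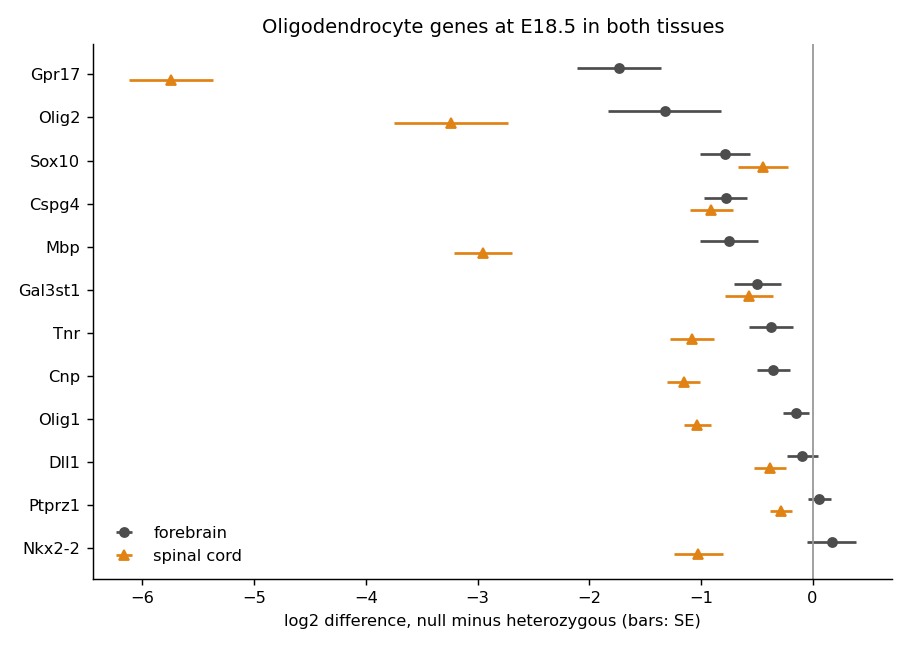
Log2 difference, null minus heterozygous, of 12 oligodendrocyte genes in E18.5 forebrain (circles) and spinal cord (triangles), with bars for the SE. Gpr17 stands at -1.73 in forebrain and -5.74 in spinal cord, and Cspg4 at -0.78 and -0.91.

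Interneuron genes of the ventral forebrain lay on both sides and none was called. The Dlx factors specify GABAergic neurons in the ganglionic eminences. Dlx1 gave 1954 and 1635 in null forebrain, against 1207 and 1332 in heterozygous forebrain (0.49 ± 0.38 (SE)). Dlx2 gave 1247 and 1180 in null forebrain, against 946 and 927 in heterozygous forebrain (0.37 ± 0.57 (SE)). In spinal cord Dlx2 lay between 15.2 and 136.4, and that spread enters its SE. Dlx5 differed by 0.30 and Dlx6os1, a non-coding transcript of the Dlx5 and Dlx6 locus, by 0.59 ± 0.33 (SE). For each of these 4 transcripts both null arrays lay above both heterozygous arrays. Dlx4, also of the list, stood at -0.38 ± 0.47 (SE).

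Lhx6, the factor of interneurons from the medial eminence, was read by 2 probe sets. Its 1422262_a_at, which stood for the gene, gave 622 and 578 in null forebrain, against 449 and 384 in heterozygous forebrain (0.51), and the brighter 1425094_a_at gave 2218 and 1897, against 1913 and 1821 (0.14). The regional factor Vax1 differed by 0.64 ± 0.35 (SE) and Sp8, of the lateral eminence, by 0.59 ± 0.41 (SE). Nkx2-1, which specifies the medial eminence, gave 104.0 and 40.2 in null forebrain, against 87.2 and 20.0 in heterozygous forebrain, and did not pass the filter.

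Genes of differentiated GABAergic neurons lay on both sides. Gad1, which makes GABA, gave 3707 and 3411 in null forebrain, against 3360 and 3087 in heterozygous forebrain (0.14 ± 0.10 (SE)), and its second probe set differed by 0.11. The second such enzyme gene, Gad2, gave 1259 and 1299 in null forebrain, against 1460 and 1557 in heterozygous forebrain (-0.23 ± 0.13 (SE)). Slc32a1, the vesicular GABA transporter gene, gave 719 and 562 in null forebrain, against 754 and 877 in heterozygous forebrain (-0.35 ± 0.16 (SE), limma p 0.053). The neuropeptide genes Npy (-0.22 ± 0.12 (SE)) and Sst (-0.06 ± 0.09 (SE)) were also without a call.

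Of the 33 interneuron genes 25 were tested, 0 were called, 0 were higher and 2 lower at an unadjusted p under 0.05 (8%, against 3.25% of all genes). Satb1, a chromatin organiser of interneurons that cortical neurons also express, gave 1934 and 2099 in null forebrain, against 2685 and 2771 in heterozygous forebrain (-0.43 ± 0.10 (SE), limma p 0.00096, adjusted p 0.45). Its other tested probe sets stood at 0.04 and -0.46. Zeb2, a factor that directs interneuron migration and also acts in cortical neurons, gave 2323 and 2228 in null forebrain, against 3124 and 3008 in heterozygous forebrain (-0.43 ± 0.14 (SE)), while its other tested probe sets ran between -0.21 and 0.18. Both null arrays lay above both heterozygous arrays for 10 of the 25 genes (40%, against 18.3% of all genes) and below them for 7 (28%, against 18.1%). The list median was 0.06. It was -0.01 without heterozygous replicate 4, with 12 of 25 genes positive, and 0.15 without null replicate 1. The list's summed signal was 41220 and 41125 in null forebrain, against 41677 and 41075 in heterozygous forebrain.

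Other ventral forebrain neurons were also without a call. Of 13 striatal projection neuron genes tested, 1 was higher (7.69%, against 3.09% of all genes) and 1 lower (7.69%, against 3.25%) at an unadjusted p under 0.05. The lower one was the dopamine receptor gene Drd2, with 445 and 553 in null forebrain, against 702 and 664 in heterozygous forebrain (-0.45). The higher one was Rasd2, with 340 and 277 in null forebrain, against 39.3 and 242 in heterozygous forebrain (1.44). It stood at 0.33 without heterozygous replicate 3 and at 2.55 without heterozygous replicate 4, and its second probe set stood at 0.04. Of 7 cholinergic genes tested 0 had an unadjusted p under 0.05. Chat, which makes acetylcholine, differed by -0.39 ± 0.35 (SE), and Isl1, a factor of striatal and cholinergic neurons, by 0.33 ± 0.25 (SE).

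The core cortical genes Neurod6, Bcl11b, Emx1, Fezf2 and Cux2 had differences between -0.28 and 0.22 in the probe sets given here, none of them with a call. Neurod6, a factor of projection neurons, gave 5083 and 5222 in null forebrain, against 5056 and 5226 in heterozygous forebrain, a difference of 0.00 ± 0.11 (SE). Bcl11b, of deep-layer neurons, differed by 0.06 ± 0.13 (SE), and its 3 other probe sets by -0.05 to -0.11. Emx1, of the cortical primordium, differed by -0.13 ± 0.32 (SE), and Fezf2 by 0.22 ± 0.46 (SE). Cux2, of upper-layer neurons, was read from 1447500_at (-0.28) and 1450181_at (-0.03), since the probe set that stood for the gene did not pass the filter.

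None of the core cortical genes Pax6, Eomes, Neurog2 and Tbr1 was called. Pax6, of radial glia, gave 586 and 561 in null forebrain, against 437 and 427 in heterozygous forebrain (0.40 ± 0.21 (SE)). This is the probe set that stood for Pax6, and its other probe sets are not given here. Eomes marks intermediate progenitors. Its 1426001_at gave 792 and 803 in null forebrain, against 390 and 438 in heterozygous forebrain (0.92, adjusted p 0.78), and its 1435172_at gave 1046 and 1544, against 801 and 1171, with overlap (0.39). The neurogenic factor Neurog2 stood at 0.33, and Tbr1, of early-born neurons, gave 1803 and 1794 in null forebrain, against 1210 and 1652 in heterozygous forebrain (0.34 ± 0.32 (SE)).

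Of 29 cortical genes tested 0 were called, 0 were higher and 1 was lower at an unadjusted p under 0.05 (3.45%, against 3.25% of all genes). It was Rorb, a factor of the cortical input layer, with 531 and 439 in null forebrain, against 757 and 781 in heterozygous forebrain (-0.65 ± 0.16 (SE), limma p 0.0015, adjusted p 0.51). Its other probe sets stood at 0.40 and -0.07, so the probe sets of Rorb did not share a direction. The list median was 0.03, and 17 of 29 genes had a positive difference (58.6%, against 50.3% of all genes). Without null replicate 1 or without heterozygous replicate 3 the count was 13 of 29 and the list median was -0.03 or -0.02.

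**Figure D3:**
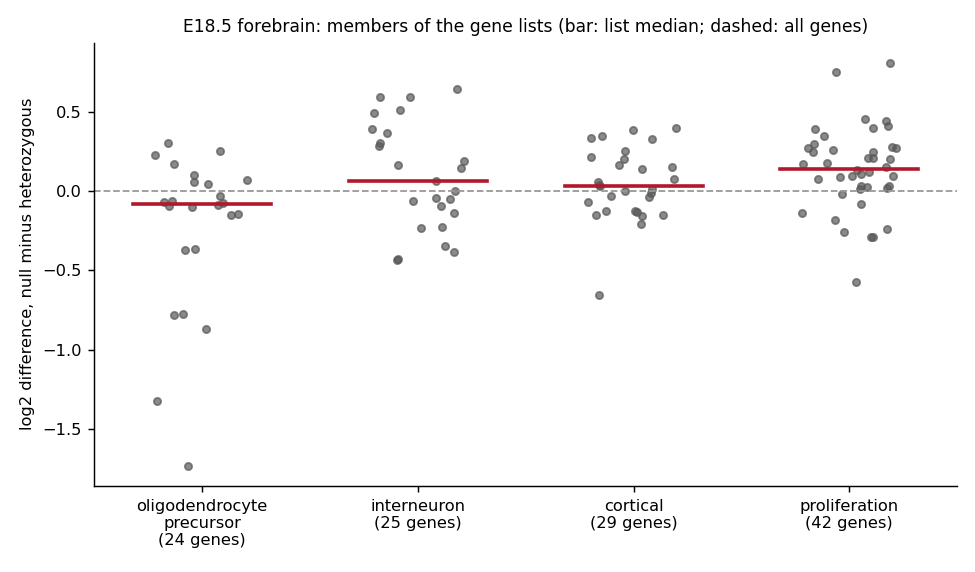
Log2 differences, null minus heterozygous, in E18.5 forebrain for the tested members of 4 gene lists, 1 point per gene, with a bar at each list's median and a dashed line at the median of all genes. The precursor list reaches down to -1.73 (Gpr17), the cortical list centres on 0.03, and the proliferation list centres on 0.14.

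Most proliferation genes had positive differences, none of them with a call. Of 51 listed genes 42 were tested and 0 were called, and 33 of the 42 (78.6%) had a positive difference of any size, against 50.3% of all genes. At an unadjusted p under 0.05, 3 were higher (7.14%, against 3.09% of all genes) and 0 lower. Both null arrays lay above both heterozygous arrays for 17 (40.5%, against 18.3%) and below them for 6 (14.3%, against 18.1%). The list median was 0.14. Among its 75 tested probe sets 58 (77.3%) had positive differences, against 49.4% of all probe sets. The list's summed signal was 44573 and 46573 in null forebrain, against 40420 and 40791 in heterozygous forebrain. The list also holds cell cycle inhibitor genes, which enter these counts and sums. Cdkn1b (0.13), Cdkn1c (0.09) and Cdkn2c (0.34) had positive differences, and Cdkn1a (-0.26) a negative one. Genes of a cell cycle programme move together, so these counts are not independent. The share of genes with positive differences was 64.3% to 71.4% when 1 of the forebrain arrays was left out.

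Replication genes held 2 of the 3 genes with an unadjusted p under 0.05. Pcna, the sliding clamp of DNA polymerase, gave 4223 and 4035 in null forebrain, against 3296 and 2998 in heterozygous forebrain (0.39 ± 0.10 (SE), limma p 0.0031, adjusted p 0.54). Mcm2, a subunit of the replicative helicase, gave 772 and 1269 in null forebrain, against 622 and 547 in heterozygous forebrain (0.75 ± 0.28 (SE)), and its second probe set gave 643 and 717, against 407 and 342 (0.84, limma p 0.0045). The remaining helicase subunit genes, Mcm3, Mcm4, Mcm5, Mcm6 and Mcm7, stood between 0.02 and 0.41. Rrm1 and Rrm2, which make deoxynucleotides, stood at 0.27 and 0.25.

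Mitotic genes differed among themselves. Plk1, a mitotic kinase gene, gave 385 and 345 in null forebrain, against 157 and 256 in heterozygous forebrain (0.81 ± 0.30 (SE), limma p 0.02). The proliferation marker Mki67 gave 799 and 985 in null forebrain, against 773 and 693 in heterozygous forebrain (0.27 ± 0.16 (SE)), and Top2a differed by 0.21 ± 0.14 (SE). Cdk1, the kinase of mitotic entry, gave 1145 and 798 in null forebrain, against 545 and 879 in heterozygous forebrain, with overlap (0.46). Aurkb, another mitotic kinase gene, gave 248 and 300 in null forebrain, against 373 and 304 in heterozygous forebrain (-0.29 ± 0.25 (SE)). Ccnb1 was not analysed here.

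Among the cyclins that couple growth signals to division, Ccnd2, the one of cortical progenitors, gave 8505 and 9234 in null forebrain, against 7850 and 7855 in heterozygous forebrain (0.17 ± 0.14 (SE)). All 6 of its tested probe sets had positive differences, from 0.09 to 0.30. Ccnd1 stood at -0.18, with its other probe sets at -0.01 and 0.01, and Ccnd3 at -0.24, with its other tested probe set at -0.19. The cell cycle inhibitor gene Cdkn1a gave 807 and 772 in null forebrain, against 1010 and 886 in heterozygous forebrain (-0.26 ± 0.14 (SE), limma p 0.1). The inhibitor gene Cdkn2c stood at 0.34.

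**Figure D4:**
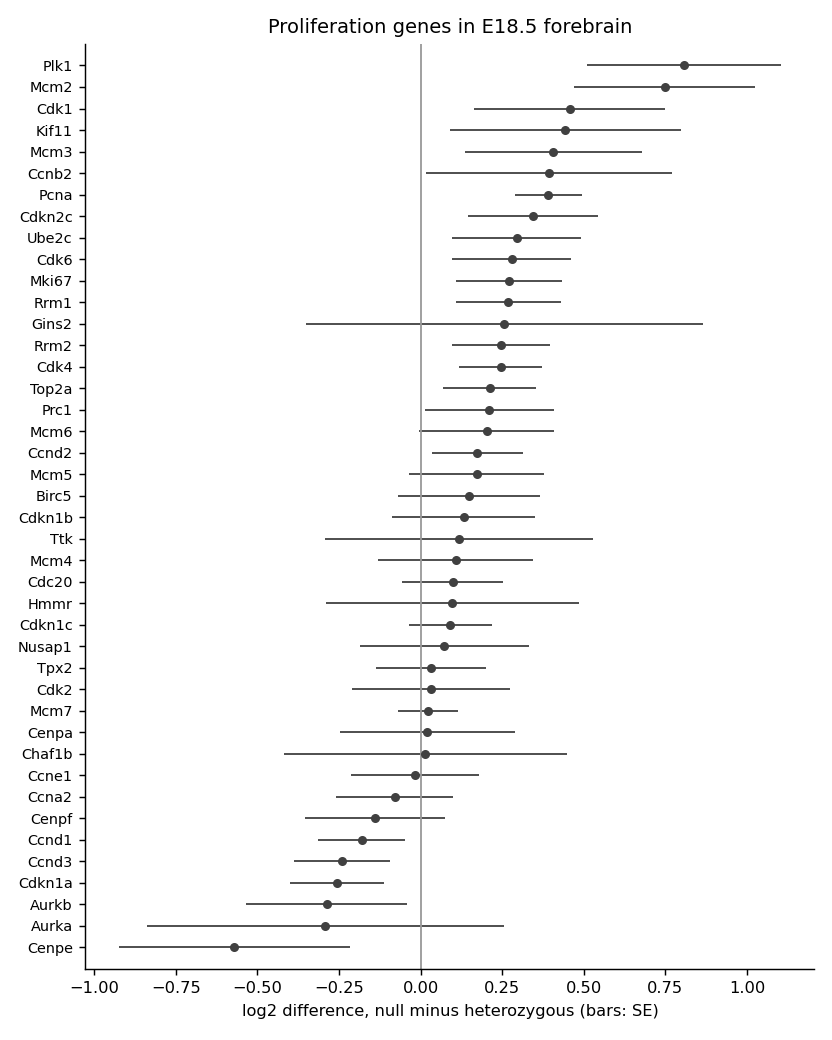
Log2 difference, null minus heterozygous, of the 42 tested proliferation genes in E18.5 forebrain, sorted by size, with bars for the SE. Of the 42 genes, which include cell cycle inhibitor genes, 33 lie right of 0. Plk1, Mcm2 and Pcna are the 3 with an unadjusted p under 0.05.

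Neural stem genes had 17 positive differences among 25 tested (68%, against 50.3% of all genes), with a list median of 0.04. Without null replicate 2 there were 13 (52%), and the median lay between 0.03 and 0.14 when 1 forebrain array was left out. Of the 25, 0 were called, and Vim (0.34 ± 0.12 (SE)), the intermediate filament of radial glia, and Hopx (0.22), of outer radial glia, were higher at an unadjusted p under 0.05 (8%, against 3.09% of all genes), with 0 lower. Sox2, which maintains progenitors, gave 2677 and 2707 in null forebrain, against 2321 and 2308 in heterozygous forebrain (0.22 ± 0.10 (SE)). Id4, an inhibitor of basic helix-loop-helix factors, was read by 3 probe sets. Its brightest, 1450928_at, gave 6085 and 6873 in null forebrain, against 6321 and 5532 in heterozygous forebrain, with overlap (0.13). Its 1423260_at gave 3810 and 4087 in null forebrain, against 3246 and 3163 in heterozygous forebrain (0.30, limma p 0.0054, adjusted p 0.58), and its 1423259_at stood at 0.27 (adjusted p 0.68). The Notch target Hes5 differed by -0.01 ± 0.20 (SE) and the growth factor receptor gene Egfr by 0.02 ± 0.23 (SE), with its other tested probe sets between -0.56 and -0.04.

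The strongest forebrain call rested on a single probe set. Sox11 encodes a factor of newborn neurons, and its promoter is shown because it carried the call with the smallest p. Its window, chr12:27342669-27342968 on the minus strand, holds 2 matches of CANNTG, in capitals.
Sox11: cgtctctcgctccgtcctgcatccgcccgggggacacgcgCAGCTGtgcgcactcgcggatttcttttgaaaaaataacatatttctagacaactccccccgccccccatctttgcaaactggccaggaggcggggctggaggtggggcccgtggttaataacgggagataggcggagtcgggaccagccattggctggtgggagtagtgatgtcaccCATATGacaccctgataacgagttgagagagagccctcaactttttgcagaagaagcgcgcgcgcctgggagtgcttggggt
Probe set 1431225_at gave 20578 and 20004 in null forebrain, against 2855 and 3831 in heterozygous forebrain, and rose by 2.61 ± 0.21 (SE) with a limma adjusted p of 0.0013. None of the other 5 probe sets of Sox11 was called. The differences of 1429051_s_at, 1429372_at and 1453002_at were 0.16, 0.28 and 0.16. Probe set 1436790_a_at gave 10153 and 11359 in null forebrain, against 16841 and 14207 in heterozygous forebrain (-0.53, adjusted p 0.34), and 1453125_at stood at -0.39. In spinal cord 1431225_at rose as well, with 1494 and 1860 in null cord, against 269 and 458 in heterozygous cord (2.19, adjusted p 0.0025), and 1436790_a_at gave 3196 and 3337 in null cord, against 5062 and 5622 in heterozygous cord. Both null arrays thus lay above for 1431225_at and below for 1436790_a_at in both tissues, and which transcript each reads was not tested. The Sox11 call was lost in 1 of 18 alternatives, a fit in which the spread has no trend with signal.

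Mboat2, an acyltransferase gene of membrane lipids, gave 1411 and 1466 in null forebrain, against 591 and 578 in heterozygous forebrain with 1425029_a_at, and rose by 1.28 ± 0.13 (SE) (limma adjusted p 0.0076). The call was lost in 4 of 18 alternatives, without null replicate 1 (adjusted p 0.069), without null replicate 2 (0.082), with forebrain arrays alone (0.057) and without trend (0.21). Its second probe set, 1456908_at, gave 767 and 617 in null forebrain, against 844 and 753 in heterozygous forebrain (-0.21). In spinal cord 1425029_a_at gave 1555 and 1471 in null cord, against 653 and 556 in heterozygous cord (1.31, adjusted p 0.003). Mboat2 and Sox11 lie on chromosome 12 with 5 protein-coding genes between them in the RefSeq annotation. All 5 were tested, 0 were called, and their differences ran between -0.01 and 0.12. Of 440 chromosome 12 genes tested, 2 were called, namely Sox11 and Mboat2, against 5 of all 12342 genes (0.0405%). Chromosome 12 was examined because both genes lie on it, so this count is set by that choice. Bzw2, also on chromosome 12, was among the 8 genes of smallest p on the higher side (0.44 ± 0.09 (SE), adjusted p 0.45).

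**Figure D5:**
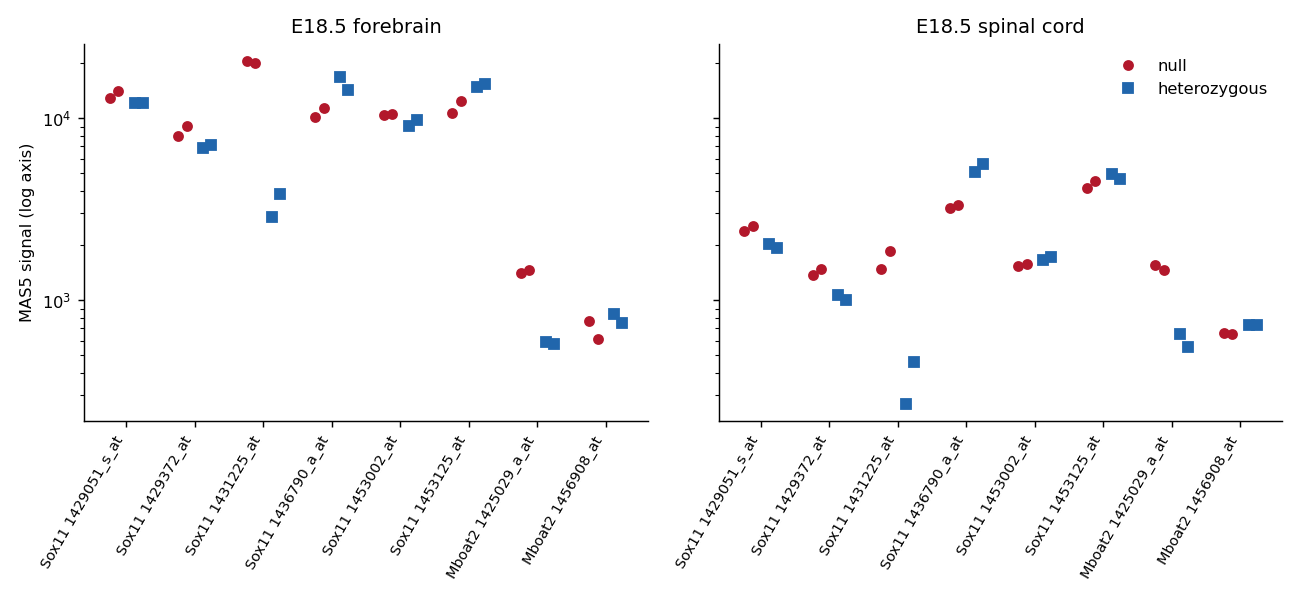
Signal of all probe sets of Sox11 and Mboat2 on each E18.5 array (log axis), forebrain left and spinal cord right, with null arrays as circles left of heterozygous arrays as squares. Null arrays lie above heterozygous arrays for Sox11 1431225_at and Mboat2 1425029_a_at in both tissues, and below them for Sox11 1436790_a_at.

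Soga3 was called from 1 of its probe sets, and the second had the same sign. Its 1429628_at gave 4844 and 4657 in null forebrain, against 2974 and 3112 in heterozygous forebrain (0.64 ± 0.09 (SE), limma adjusted p 0.043). Its 1438436_at gave 1087 and 1078 in null forebrain, against 722 and 780 in heterozygous forebrain (0.52). The call was lost in 13 of 18 alternatives, among them every fit that left out a forebrain array (adjusted p 0.073 to 0.22). In spinal cord 1429628_at differed by 0.76 (adjusted p 0.0054), while 1438436_at overlapped, with 208.7 to 248.8 in null cord, against 210.0 to 337.8 in heterozygous cord. Sox11, Mboat2 and Soga3 were the 3 genes called in both tissues, out of 5 calls in forebrain and 16 in spinal cord.

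Hbb-b2, a beta globin gene of red blood cells, gave 532 and 691 in null forebrain, against 131 and 175 in heterozygous forebrain (1.89 ± 0.26 (SE), limma adjusted p 0.043), and was lost in 12 of 18 alternatives. Its second probe set stood at 0.31, with 128 and 185 in null forebrain, against 126 and 117 in heterozygous forebrain. The 5 erythroid genes with a probe set summed to 308 and 613 in null forebrain, against 390 and 310 in heterozygous forebrain, and the part of blood in the Hbb-b2 difference was not tested. Near-identical globin genes can share probes.

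Hoxb3, a patterning gene of the hindbrain and cord, fell in null forebrain, where 1456229_at gave 26.4 and 11.0, against 280.7 and 145.4 in heterozygous forebrain (-2.69 ± 0.29 (SE), limma adjusted p 0.0079). All 4 values lay far below the 2147 to 2686 of spinal cord. Its second probe set differed by -0.42 with overlap. The call was lost in 4 of 18 alternatives, including the fit of forebrain arrays alone (adjusted p 0.82). The trunk Hox list gave 1404 and 1791 in null forebrain, against 1722 and 1797 in heterozygous forebrain, and 10 of its 13 genes had negative differences (76.9%, against 49.7% of all genes). Leaving out 1 forebrain array gave 7 or 8 of 13. Most of these genes had mean forebrain signals below the array median, down to 16.9, so their signs are read near background. Hoxa5 gave 39.7 and 562.6 on the null arrays, against 383.5 and 352.9 on the heterozygous arrays, and weighs on the null sums. The list had its lowest unadjusted p at Hoxc10 (-1.42, with 16.3 and 11.2 in null forebrain, against 79.9 and 49.3 in heterozygous forebrain). The part of caudal tissue in the Hoxb3 difference was not tested.

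The other genes of smallest p included a glial gene. Bcan, which encodes the matrix proteoglycan brevican of astrocytes and precursors, gave 3978 and 3627 in null forebrain, against 5620 and 5547 in heterozygous forebrain (-0.55 ± 0.09 (SE), limma adjusted p 0.11). Its second probe set differed by -0.62, with 597 and 527 in null forebrain, against 814 and 928 in heterozygous forebrain. Both probe sets of Bcan therefore placed the null arrays lower. With quantile normalization Bcan was called (-0.59, adjusted p 0.037). Srsf2, a splicing factor gene, stood at -0.61 (adjusted p 0.081), but its 3 other probe sets stood between 0.20 and 0.29. Snhg6, a non-coding host transcript, stood at -0.70 (adjusted p 0.12), Unc93b1 at 1.74 and Sorbs3 at 1.71 (both adjusted p 0.083).

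Markers of neighbouring regions and other cell types were read to set beside these differences. Of 8 hypothalamic genes tested, 7 had positive differences (87.5%, against 50.3% of all genes) and 2 were higher at an unadjusted p under 0.05 (25%, against 3.09%). Pmch, the gene of melanin-concentrating hormone, gave 475 and 587 in null forebrain, against 164 and 83.0 in heterozygous forebrain (2.03 ± 0.43 (SE), adjusted p 0.45). It reached the array median on the 2 null forebrain arrays alone. Pmch thus passed the filter only through the group where it is high, and the share of 25% includes it. Otp, a hypothalamic factor, stood at 0.41. The list summed to 5146 and 5272 in null forebrain, against 4256 and 4175 in heterozygous forebrain, with no overlap. Choroid plexus genes summed to 32331 and 35084 in null forebrain, against 32838 and 35646 in heterozygous forebrain, microglial genes to 3649 and 3186, against 3619 and 2869, and endothelial and mural genes to 7820 and 8468, against 7752 and 7522. Meningeal genes summed to 5097 and 4928, against 5537 and 4300, and thalamic genes to 4925 and 8381, against 6367 and 7302. Astrocyte genes summed to 26248 and 26557, against 27319 and 26050. The part of dissection in any of the differences was not tested.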

How the data were processed

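RNA of E18.5 forebrain and spinal cord was hybridised to Affymetrix Mouse Genome 430 2.0 arrays after TriZol and RNeasy extraction and biotin labelling, per the labels' protocols. The deposited values are MAS5 signal intensities on a linear scale, per the submitters' processing notes, which give no MAS5 version, and the authors' intensities have a mean of 500 on each array after 2% trimming at each end, as found in the values. Detection calls were not used here.

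Of 45101 probe sets, 64 controls were left out. Gene symbols came from the platform annotation: 34945 probe sets had 1 symbol, 932 several and 9224 none, and 34741 were matched to RefSeq by Entrez identifier. Each gene was represented by the probe set whose log2 signal averaged highest across the 30 arrays, and tested if the signal reached the array median on at least 2 of the 8 tissue arrays. The filter uses all groups, so a gene can pass through the group where it is high. With limma 3.58.1 (R 4.3.3), log2 of signal plus 16 was fitted over the 8 tissue arrays with 4 group means and 4 residual degrees of freedom, with eBayes with trend, two-sided tests and Benjamini-Hochberg adjustment over all 12342 genes. A second fit used all 25925 probe sets. Of the named genes, 76 had more than 1 probe set, and the text does not give every one of them. A value given alone is that of the probe set that stood for the gene and need not hold for its other probe sets. The steps were tested on simulated data.

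The groups, the gene lists and the named genes were chosen with earlier results of these data known. Named were core genes of each list, called genes, the 8 genes of smallest p in each direction, and the list members of smallest p, up to 6 for the precursor, interneuron, cortical and proliferation lists and up to 3 for others. Outside this rule, Tma16, Abce1, Dlx4, Cdkn1b, Cdkn1c and the helicase subunit genes beside Mcm2 were named after their values were seen. Genes without a probe set of 1 symbol were not analysed here. The replicate numbers shared by the tissues were checked: over 12342 genes the deviations of forebrain and spinal cord from their group means correlated at 0.025 in null and 0.040 in heterozygous embryos, so the numbers were not taken to pair the arrays. Alternatives changed the pseudocount, the filter, the scaling, the spread model, the block and the arrays. Promoter windows came from RefSeq, and figures were drawn with matplotlib 3.10.9.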

Additional observations from a re-analysis of the deposited data

How the results depend on the processing

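Of the alternatives to the limma fit that called 5 forebrain genes, dropping the filter gave 3, array weights gave 3, forebrain arrays alone gave 1 (706 at an unadjusted p under 0.05), and eBayes without trend gave 0 (755 at an unadjusted p under 0.05). Calling at an unadjusted p under 0.05 with a log2 difference of at least 1 gave 114. Leaving out each array in turn gave 2 to 10 forebrain genes, with 2 without either heterozygous spinal cord array, 3 without null forebrain replicate 1 and 10 without heterozygous forebrain replicate 3. The same step gave 2 to 21 spinal cord genes in place of 16, and 0 to 2 genes for the difference between the tissues in place of 0. That last count was 1 with a pseudocount of 64 (Gpr17) and 1 with all probe sets as features (Abce1, named after its values were seen). Probe sets without cross-hybridisation suffixes gave 2 calls in place of 4. The replicate number as a block gave 5 forebrain genes and 0 for the difference between the tissues, and changed no call; the numbers are not known to pair the arrays. Over 18 alternatives, Sox11 lost its call in 1 (adjusted p 0.21), Mboat2 in 4, Hoxb3 in 4, Hbb-b2 in 12 and Soga3 in 13, and Bcan and Hoxa5 gained 1 in 1 alternative each. No called difference changed sign. The number of arrays and signals near background limit what can be called, and the cause of the changes was not tested.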

Other observations

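The remaining genes of smallest p, none of them called by limma, fell into no list. Sall3, a zinc finger factor gene, gave 382 and 424 in null forebrain, against 251 and 187 in heterozygous forebrain (0.85, adjusted p 0.45). Micos13, of the mitochondrial inner membrane, stood at -0.50. Hdgfl3 stood at -0.56, with its other probe sets at 0.20 and -0.05. The proton pump subunit gene Atp6v0a1 stood at -0.45, with its other probe sets at 0.26, -0.09 and 0.02. Adamtsl4 gave 11.3 and 26.7 in null forebrain, against 99.5 and 221.4 in heterozygous forebrain (-2.28).

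Among other cell types, Fcer1g, an immune receptor subunit gene of microglia, gave 134 and 96.4 in null forebrain, against 332 and 181 in heterozygous forebrain (-1.01, limma adjusted p 0.67). Of the 10 tested microglial genes 8 had positive differences (80%, against 50.3% of all genes), but 4 of 10 did without null replicate 1 or without heterozygous replicate 4. The immediate early gene Fos gave 165.0 and 165.2 in null forebrain, against 237 and 364 in heterozygous forebrain (-0.77, limma adjusted p 0.68). Gja1, a gap junction gene of astrocytes, gave 1565 and 1408 in null forebrain, against 1169 and 1115 in heterozygous forebrain (0.37, limma adjusted p 0.51), and its 5 other probe sets stood between -0.00017 and 0.27.

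The probe sets that carried the Sox11 and Mboat2 calls were also read in untransduced neurospheres, cultures of neural progenitors. These are the E14.5 EGFRvIII cultures, so they differ from the E18.5 tissue in age and in EGFRvIII as well as in culture. Sox11 1431225_at lay between 6809 and 13023 in 6 null cultures, between 6834 and 10134 in 3 heterozygous cultures and between 5817 and 6979 in 3 wild-type cultures. Mboat2 1425029_a_at lay between 2091 and 3235 in null cultures, between 3136 and 3667 in heterozygous cultures and between 2757 and 4116 in wild-type cultures. Null and heterozygous cultures overlapped for both. The median of Mboat2 was 2793 in null and 3506 in heterozygous cultures, the opposite order to tissue. In cultures transduced with GFP it lay between 1912 and 2290 in 3 null cultures, below the 3472 and 3509 of 2 heterozygous cultures. These differences were not tested.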
